A study of Homo sapiens with 6 samples.

Results

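The genes described here encode the subunits of the proteasome and the proteins that cap or assemble it. They were chosen by symbol, as the rows whose symbol is PSMA, PSMB, PSMC, PSMD or PSME followed by a number, without PSMB8 and PSMB9. The rule took 39 of the 20745 genes in the authors' table: 15 PSMA and PSMB genes, 20 PSMC and PSMD genes and 4 PSME genes. Pseudogenes were outside the rule.

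The RNA came from AB 8/13 podocytes, a conditionally immortalized human podocyte line grown at 33 °C and moved to 37 °C to differentiate before treatment. There were 3 vehicle cultures and 3 cultures given 1 µM levamisole for 24 h, and both groups shared the line and its immortalizing gene. The labels describe both groups as serum free, whereas the study's methods keep the vehicle cultures in complete medium. Sequencing followed a modified CEL-seq method, which primes on the poly(A) tail, so that each read comes from the last stretch of a transcript.

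The value used is the base mean, the authors' mean normalized count of a gene over all libraries of their fit. It pools vehicle and levamisole cultures, so no value per culture and no replicate error could be given, and no order of genes was tested. The effect of levamisole on these genes was not analysed here, because the table's other columns hold the authors' own comparison. Depth per library is unknown. Mitochondrial genes, 22 in number, made up 34.8% of the sum of base means. For 8 podocyte markers, base means ran from 0.333 for PTPRO to 929 for CD2AP, with a median of 11.3. NPHS1, which encodes the slit diaphragm protein nephrin, had no row, and WT1 stood at 6.21. Of 7 markers of leukocytes, endothelium, tubule and mesenchyme, 4 had a row, and the highest of them, PDGFRB, was at 4.14. The podocyte label thus rested on CD2AP, SYNPO, PODXL and PLA2R1 more than on WT1 or NPHS1.

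The proteasome is the main protease complex of the cytosol and nucleus, which breaks down proteins tagged with ubiquitin. Its barrel, the 20S core, has outer rings of PSMA subunits that gate the entry and inner rings of PSMB subunits, of which PSMB5, PSMB6 and PSMB7 carry the active sites. The 19S cap sits on the barrel, where PSMC ATPases unfold the substrate and PSMD subunits bind and remove ubiquitin. PSME proteins are other caps that open the gate without ATP. The factor NFE2L1 drives transcription of the subunit genes together through antioxidant response elements when proteasome activity is low.

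The rule's members differ in kind from the label "constitutive". PSMB10 is an inducible subunit that replaces PSMB7 under interferon, PSME1 and PSME2 are also raised by interferon, and PSMD5, PSMD9 and PSMD10 are assembly chaperones of the cap and not part of the finished complex. They were therefore described as groups of their own: 7 alpha ring genes, 7 beta ring genes, PSMB10, 6 cap ATPases, 11 other cap subunits, 3 cap chaperones and 4 activators. PSMA8, the testis form of PSMA7, and PSMB11, the thymus form of PSMB5, had no row in the table.

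The search for the antioxidant response element used the letters TGACNNNGC on both strands of the 250 bases before each transcription start, in RefSeq promoters of GRCh38.p14. At least 1 match was found for 10 of the 34 members with a promoter in the set (29.4%). Counted by promoter, since some genes have more than 1 start, 10 of 40 member promoters (25%) held a match, against 10.9% of all 35116 promoters. PSMA7, PSMB1, PSMB6, PSMB7 and PSMD4 had no entry. The windows below show, for each symbol class, the matching member with the highest base mean, so that the element can be seen in every class. The 9 bases of the match are in capitals, each window is read 5′ to 3′ on the gene's strand, and in PSMC5 the match lies on the other strand.
PSMA4 (chr15:78540640-78540688, plus strand): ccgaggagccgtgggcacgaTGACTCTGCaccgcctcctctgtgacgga
PSMB3 (chr17:38752617-38752665, plus strand): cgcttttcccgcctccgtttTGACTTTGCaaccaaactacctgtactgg
PSMC5 (chr17:63827644-63827692, plus strand): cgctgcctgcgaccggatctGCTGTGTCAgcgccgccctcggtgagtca
PSMD5 (chr9:120843028-120843076, minus strand): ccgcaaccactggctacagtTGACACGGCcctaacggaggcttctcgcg
PSME1 (chr14:24136088-24136136, plus strand): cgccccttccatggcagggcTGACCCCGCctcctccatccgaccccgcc

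The matches ended 117 bases before the start for PSMA4, 95 for PSMB3, 48 for PSMC5, 125 for PSMD5 and 77 for PSME1. Base means overlapped between members with and without the element. The 10 members with a match ran from 67.3 to 1257 (median 279) and the 24 without from 2.14 to 3220 (median 426). The CCAAT box, the letters CCAAT on either strand, was found in 16 of 40 member promoters (40%), each of a different member, and in 32.01% of all promoters. The 16 members with it ran from 42.1 to 3220 (median 378) and the 18 without from 2.14 to 1467 (median 242). A match of letters shows only that they are there.

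Most of the proteasome genes were among the well measured genes of the table. The median base mean of the 39 members was 353, against 21.8 over all genes. A base mean above the median of all genes was found for 38 members, and 30 (76.9%) were above the upper quartile of all genes, which was 131. Above the 90th percentile of the table, 401, there were 19 members. Together the members took 0.326% of the summed base means, or 0.501% once mitochondrial genes were left out. Base means of 300 to 1000 were found for 20 members, 5 were above 1000 and 8 below 100. As 3′ reads are not spread along a transcript, base means are given as they are, and the values per kb of the canonical transcript stand beside each comparison between genes.

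**Figure D1:**
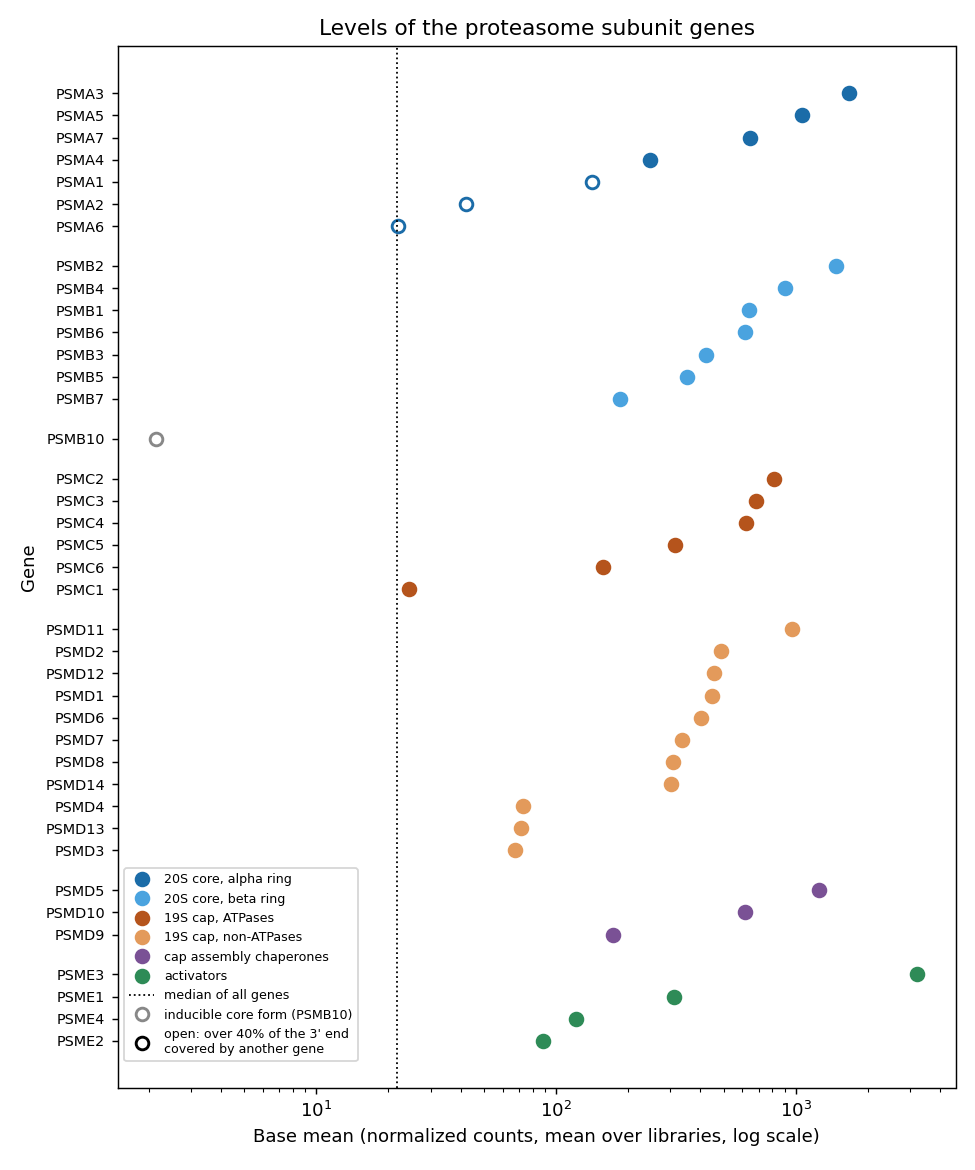
Base mean (normalized counts, mean over libraries, log scale) of each of the 39 genes, grouped by role, with 1 point per gene. The dotted line is the median of all genes, 21.8, and open points mark PSMA1, PSMA2, PSMA6 and PSMB10, where another gene covers over 40% of the 3′ end. Most points sit to the right of the line, and the filled points of the alpha ring (247 to 1661) cover much the same range as the beta ring (185 to 1467).

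The alpha ring genes ran from 21.9 to 1661, and their lowest values belonged to genes whose counts are uncertain. PSMA3 was the highest at 1661, followed by PSMA5 at 1066, PSMA7 at 646 and PSMA4 at 247. PSMA1 stood at 141, PSMA2 at 42.1 and PSMA6 at 21.9, next to the median of all genes. All 7 proteins are needed in equal number for each ring, yet the base mean of PSMA3 was 75.9 times that of PSMA6, and 81.4 times per kb. The 3 lowest alpha ring genes were also the only ones of the ring whose 3′ end runs through exons of a second gene in the same orientation. A protein-coding gene without a symbol covered 100% of the last 500 bases of PSMA2, 96.2% of those of PSMA6 and 43.8% of those of PSMA1. None of these covering genes had a row in the table. HTSeq-count by default leaves a read uncounted where exons of more than 1 gene fit it, so the counts of these 3 genes are uncertain. The part of the overlap in their low values was not tested. Without them the median of the alpha ring was 856 in place of 247, and its range was 247 to 1661, a ratio of 6.73, or 30.9 per kb.

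PSMA6 also shared sequence with copies elsewhere. Of the 441 windows of 60 bases in its last 500 bases, 26.1% occurred exactly at another place in GRCh38, and 60 bases is the read length that was mapped. The copies were the processed pseudogenes PSMA6P1 (16.1% of the windows, base mean 1.82) and PSMA6P2 (15.2%, base mean 1.03) and 1 further locus. A read from such a window has more than 1 place to map. Of the other alpha ring genes, 0 had a shared window.

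The beta ring genes were closer together, with base means from 185 to 1467 and a median of 615. Among the subunits without an active site, PSMB2 was at 1467, PSMB4 at 899, PSMB1 at 636 and PSMB3 at 422. Per kb PSMB4 led the ring at 980, and PSMB2, with a canonical transcript of 4426 bases, was at 331. The ratio of PSMB2 to PSMB7 was 7.94 in base mean and 1.76 per kb, and the highest over the lowest gene of the ring was 5.22 per kb. The standard deviation of log2 base mean over genes was 0.97 in the beta ring and 2.36 in the alpha ring. Over the 4 alpha ring genes with no covered end it was 1.181. Per kb the same standard deviations were 0.84 in the beta ring, 2.36 in the alpha ring and 2.10 over those 4 genes. None of the 7 had a covered end or a shared window.

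The catalytic subunits stood at 615 for PSMB6, the caspase-like site, 353 for PSMB5, the chymotrypsin-like site that bortezomib blocks, and 185 for PSMB7, the trypsin-like site. The interferon-inducible counterparts of PSMB5 and PSMB6 were lower. PSMB8, which replaces PSMB5, was at 77.5, and PSMB9, which replaces PSMB6, was at 37.7. PSMB5 was thus 4.55 times PSMB8 (4.90 times per kb) and PSMB6 was 16.3 times PSMB9 (20.1 times per kb). Both inducible genes lay below the upper quartile of all genes, with 0% of their 3′ ends covered and no shared window.

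PSMB10, which replaces PSMB7, had the lowest base mean of all members, 2.14, and was the only one below 5. The table held 35.7% of its genes below that value. PSMB7 was 86.3 times PSMB10, or 85.7 times per kb. All of the last 500 bases of PSMB10 were covered by a protein-coding gene on the same strand, which had a base mean of 0.478. The count of PSMB10 is uncertain for that reason, and its ratio to PSMB7 cannot be set beside those of the other pairs.

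**Figure D2:**
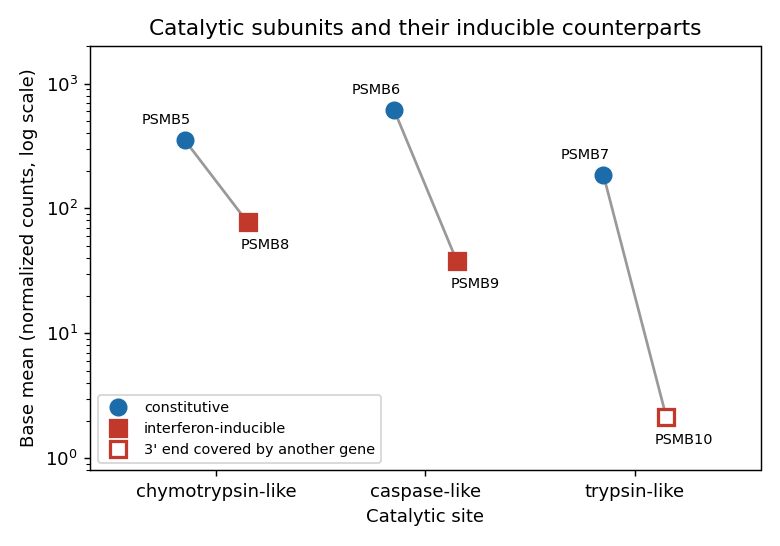
Base mean (normalized counts, log scale) of the constitutive catalytic subunits (circles) and their interferon-inducible counterparts (squares) at each active site. PSMB5 is 4.55 times PSMB8 and PSMB6 is 16.3 times PSMB9. The open square marks PSMB10, whose 3′ end is covered by another gene and whose count is uncertain.

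The 6 ATPases of the cap form a single ring that pulls the substrate into the barrel. PSMC2 was at 811, PSMC3 at 680, PSMC4 at 620, PSMC5 at 313 and PSMC6 at 158. PSMC1 stood apart at 24.5, the third lowest of all members, and per kb it was the second lowest at 5.57. PSMC2 was 33.1 times PSMC1 in base mean and 53.6 times per kb. No other gene covered the last 500 bases of PSMC1, and 0 of its 441 windows occurred elsewhere. Neither feature seen at PSMA6 was thus found in that stretch, and the cause of the low value was not tested. The PSMC1 pseudogene PSMC1P1 had a base mean of 0.905. Both checks looked only at the last 500 of the 4390 bases of the canonical transcript of PSMC1, and only exact copies were counted. A covered or copied stretch further upstream would have been missed. PSMC3 and PSMC4 had shared windows at 3.17% and 1.36%.

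The other 11 cap subunits had a median of 334, and 8 of them lay between 303 and 966. PSMD11, a lid subunit, was the highest at 966. The base scaffolds PSMD2 and PSMD1, which dock ubiquitin receptors and shuttle factors, were at 490 and 449. The lid subunits PSMD12, PSMD6 and PSMD8 were at 456, 403 and 306. The deubiquitinase PSMD14, which cuts ubiquitin chains from the substrate, was at 303, and its partner PSMD7 was at 334. Per kb PSMD14 was at 193 and PSMD7 at 205.

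The remaining 3 cap subunits were well below the others and close together. PSMD4, a ubiquitin receptor, was at 72.8, the lid subunit PSMD13 at 71.7 and the lid subunit PSMD3 at 67.3. PSMD11 was 14.3 times PSMD3 in base mean and 8.00 times per kb. None of the 3 had a covered end. PSMD4 had shared windows at 2.72%, most of them with the transcribed pseudogene PIPSL, while PSMD13 and PSMD3 had none. PSMD2 had shared windows at 9.07%.

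The chaperones that assemble the base of the cap lay within the range of its subunits or above it. PSMD5 was at 1257, the fourth highest of all members, PSMD10, also known as the oncoprotein gankyrin, at 616 and PSMD9 at 173. Per kb they were at 372, 419 and 63.7. PSMD5 was 7.25 times PSMD9 (5.84 times per kb).

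Among the activators, PSME3 had the highest base mean of all members, 3220, which was 15.5% of the members' sum. PSME3 encodes the nuclear form of the PA28 ring. PSME1 and PSME2, which together make the cytosolic PA28 ring, were at 310 and 88.4, and PSME4, which encodes PA200, was at 121. PSME3 was 10.4 times PSME1 in base mean and 3.15 times per kb, with canonical transcripts of 3182 and 965 bases. Per kb PSME3 came second among the members at 1012, after PSMA3 at 1740. PSME1 was 3.51 times PSME2 (2.89 times per kb). Of the windows of PSME2, 19.05% occurred elsewhere, most of them in the pseudogene PSME2P2 (17.2%, base mean 0.799). A microRNA gene covered 0.2% of its end. PSME4 was at rank 31 of 39 in base mean and at rank 37 per kb.

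**Figure D3:**
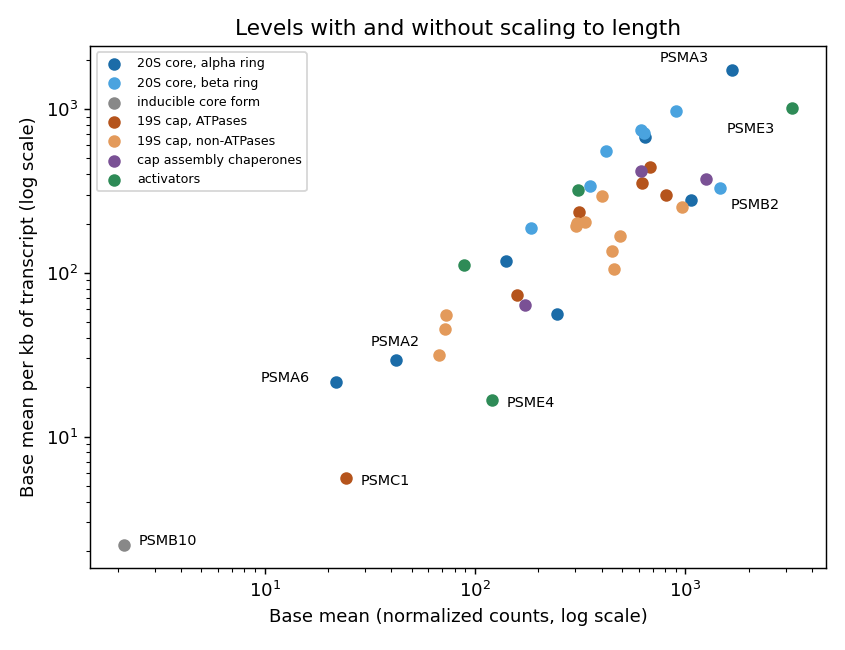
Base mean (horizontal, log scale) against base mean per kb of canonical transcript (vertical, log scale) for the 39 genes, coloured by role. The order is broadly kept (Spearman's rho of 0.86 across genes), with PSMA3 above PSME3 and PSME4 among the lowest genes on the vertical axis.

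Set side by side, the median base mean was 518 for the 14 constitutive core genes, 334 for the 17 cap subunits and 216 for the 4 activators. The core was therefore 1.55 times the cap in median base mean and 1.73 times per kb (335 against 193). The activators were below the cap in median base mean but above it per kb, at 217. The ranges overlapped almost wholly, from 21.9 to 1661 in the core and from 24.5 to 966 in the cap. With PSMB10 and the chaperones counted under their symbols the ratio was 1.14. Cap subunits with symbols outside the rule were not counted in either ratio. The sums were 8403 for the core, 6527 for the cap and 3740 for the activators, the last mostly PSME3. Differences of this size between classes were small beside the spread of genes within a class, and genes are not replicates, so no test was made.

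The base mean of the members had little relation to length, with Spearman's rho across the 39 genes of -0.14 for the exonic length and 0.11 for the canonical transcript. Across all 20599 genes with a length, rho with the exonic length was 0.47. These genes share the same libraries, and the values are descriptions.

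Of the 8 members below 100, 4 had some part of the end covered (PSMA2, PSMA6, PSMB10 and, by 0.2%, PSME2) and 1 more, PSMD4, had shared windows only. PSMC1, PSMD3 and PSMD13 had neither. Over all members, 34 had no covered end, with a median of 436 and a lowest value of 24.5, and the 4 with over 40% covered had a median of 31.98 and a highest value of 141. Of the 8 members below 100, 7 were also among the 8 lowest per kb. The gene positions of these members in GRCh38 are on chromosome 7 from 42916828 to 42932185 for PSMA2, chromosome 14 from 35278633 to 35317493 for PSMA6, chromosome 16 from 67934506 to 67936864 for PSMB10, and chromosome 14 from 90256527 to 90275429 for PSMC1.

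Genes that act on the proteasome, or encode further parts of its cap, without being among the members were also measured. All 16 of those listed had a row, with base means from 42.0 to 1409 and a median of 229, and 12 of the 16 were above the upper quartile of all genes. The core assembly factor POMP was at 769. Of the cap-bound deubiquitinases, USP14 was at 1409 and UCHL5 at 204. ADRM1, a further ubiquitin receptor of the cap that the symbol rule left out of the cap median, was at 203. NFE2L1, the transcription factor of the subunit genes, was at 243, and DDI2, the protease that activates it, at 179. Pseudogenes named after a member and with a row numbered 5, and none exceeded a base mean of 1.82.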

How the data were processed

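The authors trimmed reads with Trim Galore 0.4.5, mapped them to GRCh38 with STAR 2.7.5a, counted them per gene with HTSeq 0.11.0 and compared 3 vehicle with 3 levamisole cultures by DESeq2 1.22.0. The methods also describe a mapping with BWA and RPM scaling. The base mean deposited by the authors is a signal, made by averaging size-factor normalized counts over all libraries of their fit. It was the only column of values used. The log2 fold changes, standard errors, statistics and p-values are the authors' own comparison and were not used, and no group comparison was made.

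Computed here were class medians, ranges, ratios and values per kb (Python 3.11.15, NumPy 2.4.6, pandas 2.3.3, SciPy 1.17.1, matplotlib 3.10.9). Positions, exons and canonical transcripts came from GENCODE 44 on GRCh38, the authors' assembly with a later annotation. The cover of the last 500 transcript bases by exons of other genes on the same strand left out genes whose identifiers postdate the last one in the table. Exact 60-base copies were sought on the assembled chromosomes. Both searches were tested on simulated data. The genes named were all 39 members, at most 8 further proteasome genes and the 3 highest pseudogenes. PSME2P2 and PIPSL were named after their values were seen. Members and lists were chosen with earlier results of these data known. No depth, interval or replicate error can be given. Of the markers listed for the podocyte check, 1 is not reported here.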

Additional observations from a re-analysis of the deposited data

How the results depend on the processing

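No paired analysis was possible because cultures are pooled in the table. Left-out replicates, other normalizations and refits were therefore not run. Class medians were recomputed under 7 alternatives. Of these, 2 were chosen after seeing the data (per kb of canonical transcript, and leaving out shared 60-base windows). A value within 1.5 times was taken as unmoved: 29 of 43 values were. Of the 29, 14 were identical to the value reported, since a setting need not touch a class. The minimum of 5 took out only PSMB10, which is in no class. Class medians per kb are on another scale than base means, so whether they moved cannot be read from this limit. The 29 of 43 is therefore a count and not a measure of stability. Per kb of exonic length the medians were 46.3 (alpha ring), 324 (beta ring), 83.6 (ATPases), 44.5 (other cap subunits) and 99.7 (activators), and the core to cap ratio was 3.62. Per kb of canonical transcript the alpha ring was at 118, the ATPases at 267 and the other cap subunits at 168. The alpha ring was at 856 without members with a covered end, with or without shared windows left out as well, and the latter step put the ATPases at 236. The geometric mean put the ATPases at 273, with PSMC1 in it. The members' share of the sum was 0.501% without mitochondrial genes. The core stayed above the cap in all 7, but not every setting could have reversed that order. The minimum of 5 took out no core or cap subunit. Leaving out covered ends took out, of the core and cap, only PSMA1, PSMA2 and PSMA6, the lowest core genes.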
